A study of Rattus norvegicus with 5 samples.

Results

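A set of 10 genes that restrain growth signals or halt the cell cycle after stress was followed in rat lung: Cdkn1a, Gadd45a, Gadd45b, Gadd45g, Btg2, Errfi1, Dusp1, Spry4, Rgs1 and Rgs2. They were chosen by symbol among the 1323 distinct named symbols that the authors' 9 deposited tables list, and each of the 10 was found in at least 1 table. RNA of lung tissue from Sprague Dawley rats, an outbred laboratory strain, was sequenced on the Genome Analyser IIx in 5 libraries, 1 per group. Rats had been sorted by how long they took to gasp for the first time in hypobaric hypoxia. After a week of acclimatisation, 4 groups were held for 1 h at reduced pressure matching 9144 m. The susceptible male came from the group gasping before 5 min, the normal male from that at 15 to 20 min, the tolerant male from that beyond 45 min, and the tolerant female from that beyond 1 h. The normoxic male, the reference of 4 tables, was not screened, so the earlier screen cannot be told apart from the later exposure. The labels give no age and do not say whether a library held 1 animal or a pool. The question, per the series title, was which genes respond early in the lungs of susceptible and of tolerant rats.

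Each value below compares 1 library with another, so no difference has a replicate check and none could be tested between conditions. No other library than the tolerant female came from a female, and sex cannot be told apart from tolerance in its comparisons. A fold is the authors' ratio of a gene's proportions in a pair of libraries. The authors kept a gene in a table only when its fold reached 2 and its FDR-corrected p was under 0.05, so a gene outside a table has no value there and is not shown to be unchanged. A derived fold is the quotient of deposited folds that share a library, and it has no p-value. Depth per library is unknown, because the tables hold no counts. In whole lung, fewer cells of a type and less RNA per cell cannot be told apart.

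Cells that receive a strong stimulus switch on, within an hour or so, genes whose products shut the same signal down again. Dusp1 encodes a phosphatase that inactivates MAP kinases, Spry4 an inhibitor of the Ras to ERK route below receptor tyrosine kinases, and Errfi1 (Mig6) a protein that binds and inhibits the EGF receptor. RGS proteins speed up the GTPase activity of G protein alpha subunits and so end signalling by G protein-coupled receptors. Cdkn1a encodes p21, an inhibitor of cyclin-dependent kinases, the GADD45 proteins are stress sensors that act on p38 kinase signalling and the cell cycle, and Btg2 is an antiproliferative protein of the BTG/TOB family. Many of these genes are transcribed through CREB, SRF, p53 or glucocorticoid receptor sites in other systems.

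The stretches of 250 bases before the annotated start of 7 members are shown because these genes carried the main patterns in the tables: Dusp1, Btg2, Gadd45b, Rgs1 and Rgs2 were listed against normoxia in the susceptible male alone, and Cdkn1a and Errfi1 in every exposed library. They are RefSeq sequences of the rat assembly GRCr8, written 5′ to 3′ on the gene's own strand. The windows are chr10:17184603-17184852 (plus strand), chr13:48087691-48087940 (minus), chr7:9430719-9430968 (minus), chr13:58573188-58573437 (minus), chr13:58352667-58352916 (minus), chr20:7150682-7150931 (plus) and chr5:166606591-166606840 (plus). Capitals mark TGACG and ACGTG on either strand, including TGACG within the full palindrome TGACGTCA, the cAMP response element.
Dusp1: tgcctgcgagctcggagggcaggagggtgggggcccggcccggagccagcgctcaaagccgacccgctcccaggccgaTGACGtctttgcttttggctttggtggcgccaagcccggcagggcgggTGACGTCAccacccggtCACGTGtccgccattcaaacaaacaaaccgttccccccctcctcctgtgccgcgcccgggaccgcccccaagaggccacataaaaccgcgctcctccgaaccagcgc
Btg2: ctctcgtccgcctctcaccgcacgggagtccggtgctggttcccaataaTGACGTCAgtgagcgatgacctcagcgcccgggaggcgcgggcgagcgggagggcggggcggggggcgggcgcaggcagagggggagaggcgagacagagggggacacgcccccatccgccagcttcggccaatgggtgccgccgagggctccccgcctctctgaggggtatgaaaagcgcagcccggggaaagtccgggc
Gadd45b: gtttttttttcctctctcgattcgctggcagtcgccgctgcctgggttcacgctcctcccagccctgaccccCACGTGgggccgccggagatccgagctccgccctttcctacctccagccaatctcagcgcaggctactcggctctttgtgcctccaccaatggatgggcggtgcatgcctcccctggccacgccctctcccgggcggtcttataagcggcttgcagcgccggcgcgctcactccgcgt
Rgs1: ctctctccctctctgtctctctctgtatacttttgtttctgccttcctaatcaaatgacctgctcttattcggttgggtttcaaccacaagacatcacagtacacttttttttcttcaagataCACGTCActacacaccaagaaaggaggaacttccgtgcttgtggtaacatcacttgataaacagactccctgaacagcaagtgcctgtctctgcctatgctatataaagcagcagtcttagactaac
Rgs2: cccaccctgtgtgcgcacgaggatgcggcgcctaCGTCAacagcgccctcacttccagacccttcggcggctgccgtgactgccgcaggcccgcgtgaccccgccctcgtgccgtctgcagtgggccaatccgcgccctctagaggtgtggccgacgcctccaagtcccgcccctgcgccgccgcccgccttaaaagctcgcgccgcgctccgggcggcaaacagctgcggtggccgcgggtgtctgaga
Cdkn1a: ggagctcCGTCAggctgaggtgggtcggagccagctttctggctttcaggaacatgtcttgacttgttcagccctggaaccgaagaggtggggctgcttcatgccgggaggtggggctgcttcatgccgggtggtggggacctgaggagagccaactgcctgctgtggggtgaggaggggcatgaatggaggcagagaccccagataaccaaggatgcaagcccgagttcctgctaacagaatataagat
Errfi1: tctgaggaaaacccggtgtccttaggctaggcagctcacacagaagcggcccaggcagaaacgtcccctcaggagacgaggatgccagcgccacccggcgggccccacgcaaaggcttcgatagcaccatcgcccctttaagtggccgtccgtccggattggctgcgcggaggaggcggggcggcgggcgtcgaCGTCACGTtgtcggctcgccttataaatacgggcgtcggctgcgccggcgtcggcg

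All 10 members matched a promoter in the RefSeq table. The palindrome TGACGTCA lay in the windows of 2 members, Dusp1 and Btg2, and in 1.89% of the 21851 protein-coding promoters of the same length. The shorter TGACG, on either strand, lay in 7 of 10 windows (Cdkn1a, Errfi1, Gadd45a, Btg2, Dusp1, Rgs1 and Rgs2), against 20.4% of protein-coding promoters. ACGTG, a form of the core of the hypoxia response element, lay in 5 of 10 (Errfi1, Gadd45b, Gadd45g, Dusp1 and Rgs1), against 17.2%. The form GCGTG was not counted. The windows of Rgs2, Btg2 and Spry4 hold it or its reverse complement CACGC. Members outside the 5 with ACGTG are therefore not shown to lack the element. In Gadd45b, Gadd45g and Dusp1 the ACGTG match lay within the palindrome CACGTG, which holds ACGTG on both strands. In Errfi1 and Rgs1 a TGACG match and an ACGTG match overlap. Neither the AP-1 motif TGANTCA (5.69% of protein-coding promoters) nor the CArG box (1.52%) was found in a window of the 10. The members' windows had a median GC content of 66%, against 54% over protein-coding promoters, and the part of base composition in these shares was not tested. A match describes letters and not a bound site.

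Against normoxia, members were listed 17 times as higher and 1 time as lower over the 4 exposed libraries. In the susceptible male 8 of 10 were listed higher, against 7.41% of the 1323 symbols in the authors' deposited table, and none lower (7.26%). The absent members were Gadd45a and Spry4. The normal male had 3 of 10 listed higher (17.6%) and 1 lower (28.1%), the tolerant male 3 higher (8.39%) and none lower (6.8%), and the tolerant female 3 higher (7.26%) and none lower (6.95%) by the authors' deposited tables. The median of the listed higher members was 3.23-fold in the susceptible male, against 3.17-fold over all its higher symbols. The medians were 4.01-, 4.19- and 4.77-fold in the normal male, tolerant male and tolerant female, against 2.79-, 2.59- and 2.65-fold over all higher symbols of the authors' deposited tables. These medians cannot be compared between libraries, because 8 members enter the first and 3 each of the others. Cdkn1a and Errfi1, listed higher in all 4, had their highest folds in the susceptible male (17.0 and 7.33 in the authors' deposited table). The members were proposed with results of these tables known, so these counts are descriptions.

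**Figure D1:**
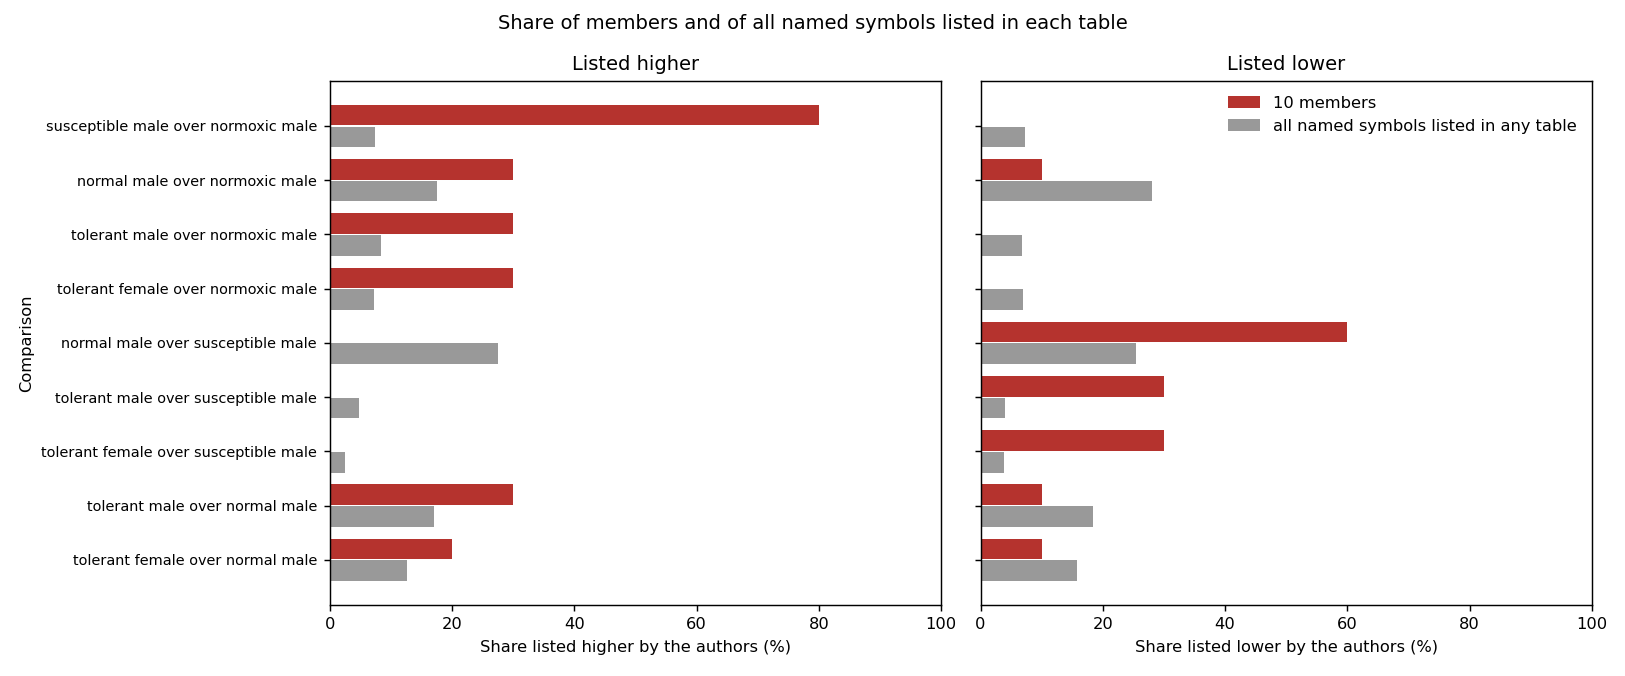
Share (%) of the 10 members and of all 1323 named symbols that the authors' tables list as higher (left) or lower (right), for each of the 9 comparisons. The members' longest bars are the 8 of 10 higher in the susceptible male over the normoxic male and the 6 of 10 lower in the normal male over the susceptible male.

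Of the cell-cycle inhibitors, Cdkn1a (chromosome 20, 7376325 to 7386778 on the build of the authors' tables, which is not named) was higher in every exposed library. Its folds over normoxia in the authors' deposited tables were 17.0 (susceptible male), 4.30 (normal male), 10.9 (tolerant male) and 8.30 (tolerant female). The susceptible male was thus highest and the normal male lowest, with both tolerant libraries between. Its FDR-corrected p was listed as exactly 0 in the susceptible and tolerant males, and in the authors' deposited tables it was 0.000931 for the normal male and 4.25e-10 for the tolerant female. It ranked 6th of 98 higher symbols by fold in the susceptible male, 46th of 233 in the normal male, 6th of 111 in the tolerant male and 8th of 96 in the tolerant female. Between exposed libraries, Cdkn1a was 3.96-fold lower in the normal male than in the susceptible male (p = 4.24e-14), 2.05-fold lower in the tolerant female than the susceptible male (p = 6.39e-05) and 2.54-fold higher in the tolerant male than in the normal male (p = 3.31e-05) in the authors' deposited tables, all p being FDR-corrected. The tolerant female was 1.32-fold lower than the tolerant male by a derived fold. It was listed in 7 of the 9 tables, more than any other of the 10.

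The 3 GADD45 genes, stress sensors of similar function, were listed in different sets of libraries. Gadd45b and Gadd45g shared the susceptible male. Gadd45g (chromosome 17, 19230896 to 19232656) exceeded normoxia 3.30-fold in the susceptible male (FDR-corrected p = 0.000364) and 4.01-fold in the normal male (p = 9.43e-07) in the authors' deposited tables. Derived folds placed it at 1.68 times the normoxic level in the tolerant male and 1.85 times in the tolerant female, both under the listing threshold of 2. It was 2.38-fold lower in the tolerant male than in the normal male (p = 0.00182) and 2.17-fold lower in the tolerant female than the normal male (p = 0.00806) in the authors' deposited tables. Of the 7 members with a value in all 4 exposed libraries, Gadd45g alone had its highest fold over normoxia in the normal male. Its locus, of 1761 bases, is the shortest of the 10. Gadd45b (chromosome 7, 10289073 to 10291110) was listed once, 2.44-fold higher in the susceptible male than in normoxia (p = 1.93e-06), in the authors' deposited table. Gadd45a (chromosome 4, 96649941 to 96652246), the p53-regulated member of the family, was also listed once, 2.24-fold higher in the tolerant male than in normoxia (p = 0.000990), in the authors' deposited table. No fold could be derived for either gene in the other 3 exposed libraries, so whether their responses differ between libraries was not tested.

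Btg2 (chromosome 13, 47026986 to 47030774) was higher by 2.63-fold in the susceptible male than in normoxia and 2.23-fold lower in the normal male than in the susceptible male, both with an FDR-corrected p of exactly 0 in the authors' deposited tables. The normal male was 1.18-fold above normoxia by a derived fold. No value could be had for the tolerant libraries.

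**Figure D2:**
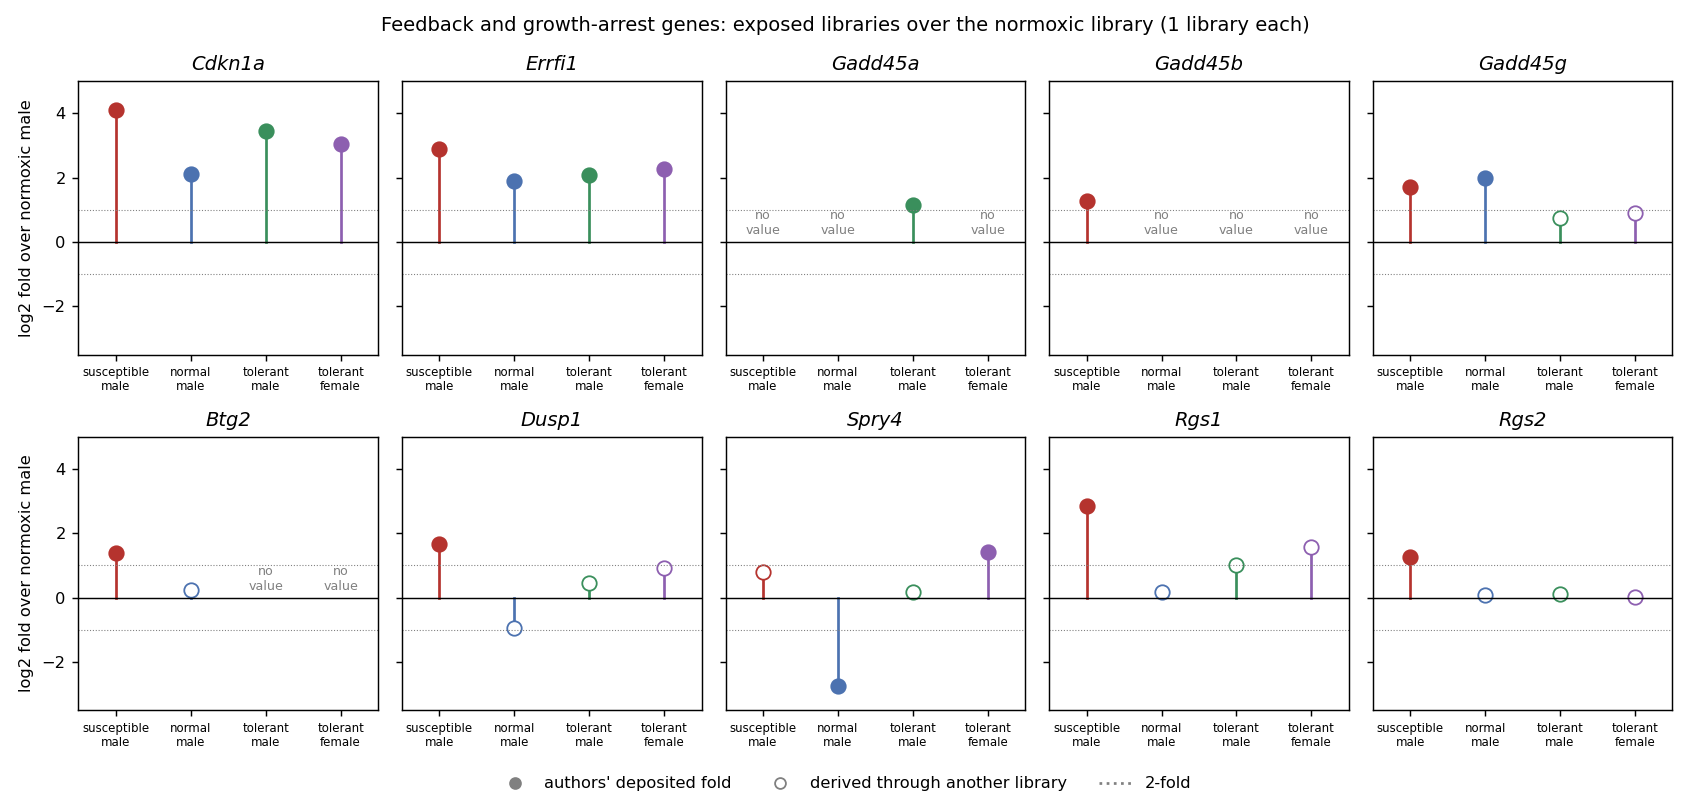
Log2 fold of each member in the 4 exposed libraries over the normoxic male, 1 library each, with filled points for the authors' deposited folds and open points for derived folds. Cdkn1a and Errfi1 lie above the dotted 2-fold line in all 4 libraries, and Spry4 lies below it in the normal male at -2.73.

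Among the kinase feedback inhibitors, Errfi1 (chromosome 5, 168012676 to 168025982) was the second member higher in every exposed library. Its fold over normoxia in the authors' deposited tables was 7.33 for the susceptible male (FDR-corrected p = 1.95e-08), 3.70 for the normal male (p = 0.00730), 4.19 for the tolerant male (p = 0.00301) and 4.77 for the tolerant female (p = 0.000413). The 2 members, Cdkn1a and Errfi1, stand against 22 of 1323 symbols (1.66%) listed higher in all 4 of these tables, which share the normoxic library. Errfi1 had no entry between exposed libraries. Its derived folds there stayed under 2, the widest being 1.98-fold lower in the normal male than in the susceptible male. Of the 7 members with a value in all 4 exposed libraries, it spanned the least between its highest and lowest library (1.98-fold), and Spry4 the most (17.7-fold).

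Dusp1 (chromosome 10, 16942906 to 16945696) exceeded normoxia 3.16-fold in the susceptible male, with an FDR-corrected p of exactly 0 in the authors' deposited table. Through the tables between exposed libraries, derived folds put it 1.91-fold lower than normoxia in the normal male, 1.38-fold higher in the tolerant male and 1.89-fold higher in the tolerant female. The normal male was thus the one exposed library below the normoxic level, by a fold under the listing threshold. The authors' deposited tables gave Dusp1 as 6.04-fold lower in the normal male and 2.29-fold lower in the tolerant male than in the susceptible male. It was 2.64-fold higher in the tolerant male and 3.62-fold higher in the tolerant female than in the normal male, and all 4 listings had a p of exactly 0 in the authors' deposited tables.

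Spry4 (chromosome 18, 31532680 to 31547586) was listed on both sides of normoxia. The authors' deposited tables gave it as 6.66-fold lower in the normal male (FDR-corrected p = 1.68e-10) and 2.66-fold higher in the tolerant female (p = 3.11e-12). Derived folds put it 1.73-fold higher in the susceptible male and 1.12-fold higher in the tolerant male. It was 11.5-fold lower in the normal male than in the susceptible male (p exactly 0), 7.46-fold higher in the tolerant male than in the normal male (p = 2.13e-12) and 17.7-fold higher in the tolerant female than in the normal male (p exactly 0) in the authors' deposited tables. By fold it ranked 17th of 338 lower symbols, 21st of 225 higher symbols and 7th of 167 higher symbols in those 3 tables. The tolerant female was also 2.38-fold above the tolerant male by a derived fold, for which there is no table. Named genes listed higher in the normal male than in normoxia had a median locus span of 15142 bases, against 25950.5 for those listed lower. In the normal male over the susceptible male these medians were 12059 and 28002 bases. They were 29972 and 8543.5 in the tolerant male over the normal male, and 29705 and 10108 in the tolerant female over the normal male. In each of these comparisons, symbols higher in the normal male thus had the shorter median span. Medians of higher and lower symbols also differed without the normal male. They were 19781 and 10289.5 in the tolerant male over the susceptible male. For the tolerant female over the susceptible male they were 10498 and 16148. Over normoxia they were 10738.5 and 15333.5 (susceptible male), 21536 and 14903.5 (tolerant male), and 17300 and 15925.5 (tolerant female). Spry4 spans 14907 bases. The part of locus length in its low value, or in the normal male's place for other genes, was not tested.

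Both RGS genes exceeded normoxia in the susceptible male and were lower in each other exposed library than in the susceptible male. Rgs1 (chromosome 13, 58121183 to 58125581), best known from lymphocytes, exceeded normoxia 7.14-fold in the susceptible male (FDR-corrected p = 1.54e-07) in the authors' deposited table. Derived folds over normoxia were 1.13 in the normal male, 1.99999 in the tolerant male and 3.00 in the tolerant female, so the tolerant male lay just outside the threshold of 2. The authors' deposited tables gave Rgs1 as 6.30-fold lower in the normal male (p = 1.47e-07), 3.57-fold lower in the tolerant male (p = 0.000218) and 2.38-fold lower in the tolerant female (p = 0.0256) than in the susceptible male. Rgs2 (chromosome 13, 57890926 to 57894477), a regulator of Gq signalling and vascular tone, exceeded normoxia 2.39-fold in the susceptible male (p = 1.48e-05) in the authors' deposited table. The normal male, tolerant male and tolerant female were 2.28-, 2.22- and 2.35-fold below the susceptible male, with p of 1.51e-05, 0.000111 and 3.11e-05 in the authors' deposited tables. Derived folds over normoxia were 1.05, 1.07 and 1.02 in those 3 libraries, so Rgs2 stood apart in the susceptible male while the other libraries lay close together.

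Between exposed libraries the members were listed 19 times. Relative to the susceptible male, 6 of 10 were listed lower in the normal male, against 25.5% of the 1323 symbols, 3 in the tolerant male (3.93%) and 3 in the tolerant female (3.78%), and none higher in any of the 3 (27.6%, 4.76% and 2.49%) in the authors' deposited tables. Rgs1 and Rgs2 were lower in all 3, against 11 of 1323 symbols (0.831%), and the 3 tables share the susceptible library. The other 9 symbols were Klf2, Nr4a1, Hes1, Irs2, Adarb1, Snf1lk, Ngp, Prg2 and Olfm4. Relative to the normal male, 3 members were listed higher (17%) and 1 lower (18.4%) in the tolerant male, and 2 higher (12.6%) and 1 lower (15.8%) in the tolerant female, by the authors' deposited tables. These shares lie near the background. In both tables Dusp1 and Spry4 were among the higher and Gadd45g was the lower one. Listed higher in the susceptible male over normoxia, and in no other table against normoxia, were 5 members (Gadd45b, Btg2, Dusp1, Rgs1 and Rgs2), against 39 of 1323 symbols (2.95%).

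**Figure D3:**
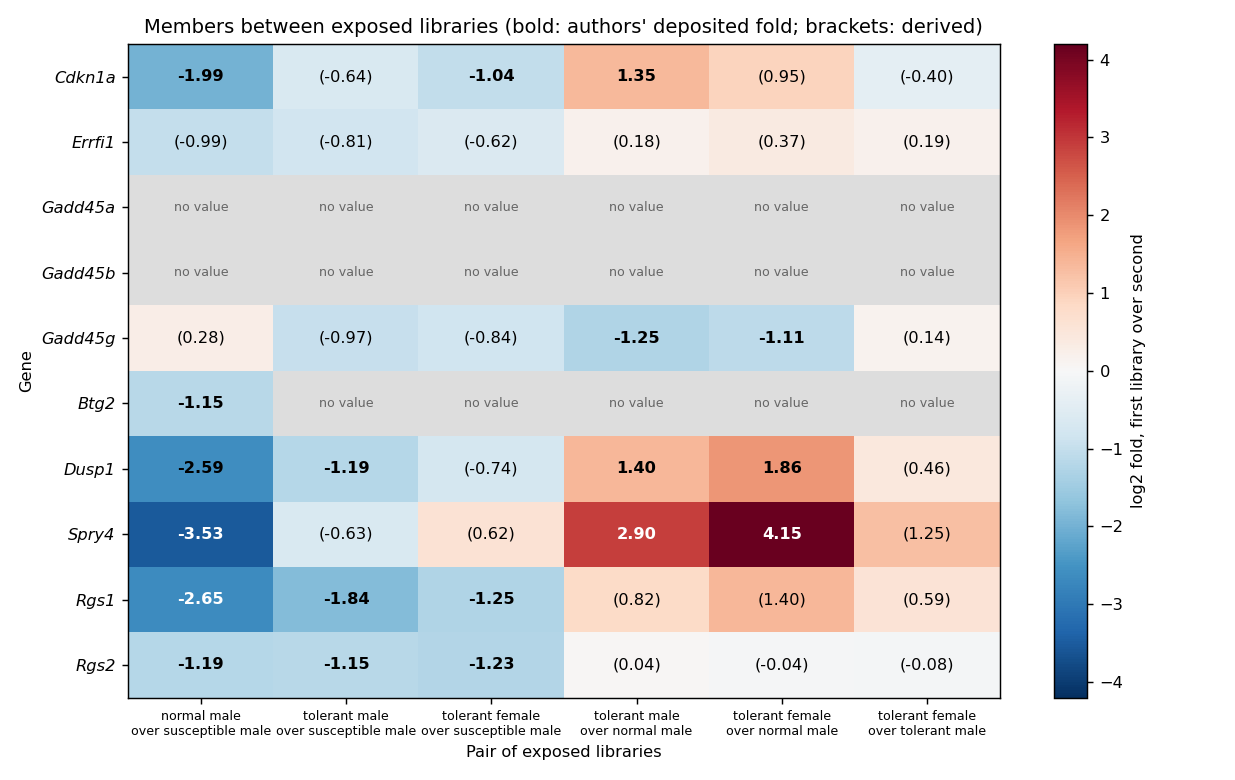
Log2 fold of each member between pairs of exposed libraries, first library over second, with the authors' deposited folds in bold and derived folds in brackets. The 3 columns over the susceptible male are mostly blue, and Spry4 reaches 4.15 in the tolerant female over the normal male.

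Likeness of pattern was measured, for the 2 members listed in all 4 tables against normoxia, as the root mean square difference of the 4 log2 folds from each of the other 46 symbols with a finite fold in all 4. Nearest to Cdkn1a was Apold1, an endothelial early-response gene, at 0.89 on the log2 scale, followed by Errfi1 at 1.01. The folds of Apold1 over normoxia were 21.1 (susceptible male), 6.07 (normal male), 17.7 (tolerant male) and 23.8 (tolerant female) in the authors' deposited tables, so it shared with Cdkn1a the lowest place of the normal male but not the highest place of the susceptible male. Nearest to Errfi1 were Plat, the gene of tissue plasminogen activator, at 0.48, Maff, a small bZIP transcription factor gene, at 0.49, and Heyl, a Notch target gene, at 0.62. Plat had folds of 4.70 (susceptible male), 5.84 (normal male), 3.60 (tolerant male) and 5.19 (tolerant female), and Maff of 5.18, 4.70, 2.73 and 6.54 for these libraries in the authors' deposited tables. Both were lowest in the tolerant male, and neither was highest in the susceptible male, unlike Errfi1. Heyl had folds of 5.54 (susceptible male), 2.23 (normal male), 3.08 (tolerant male) and 2.71 (tolerant female) in the authors' deposited tables, highest in the susceptible male and lowest in the normal male, as Errfi1 was. The 4 folds of a gene share the normoxic library, and likeness over 4 libraries says nothing of shared control.

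**Figure D4:**
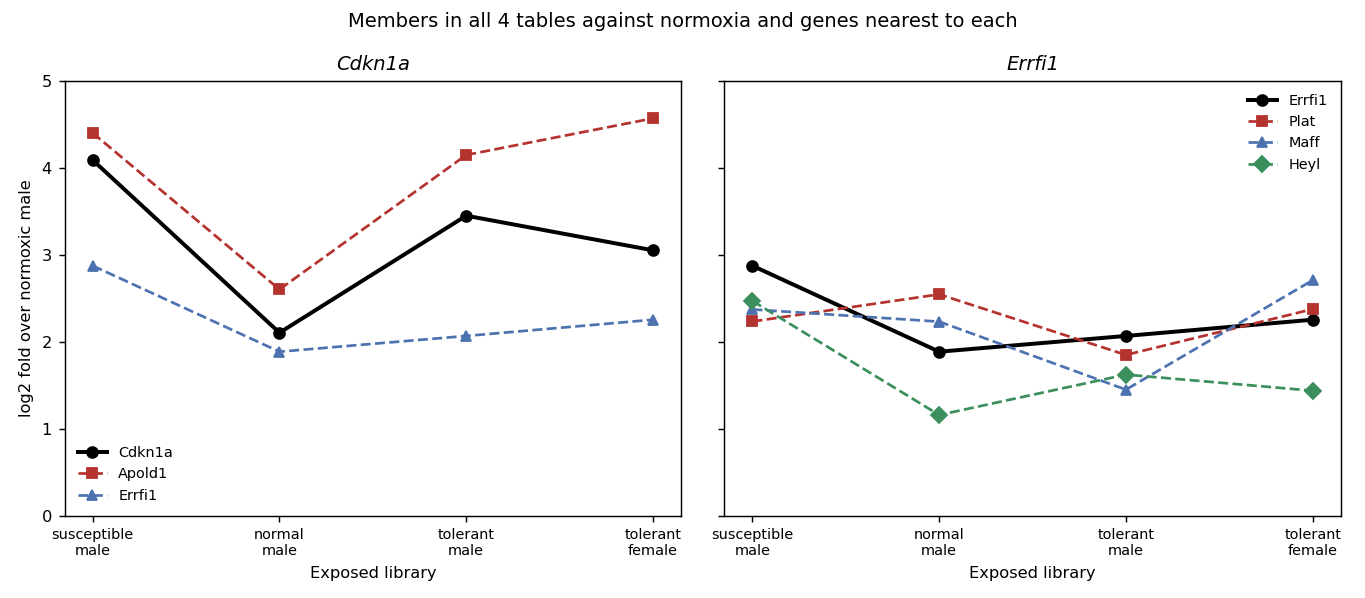
Log2 fold over the normoxic male in the 4 exposed libraries for Cdkn1a (left) and Errfi1 (right), with 2 and 3 of their nearest symbols as dashed lines. Cdkn1a and Errfi1 are both lowest in the normal male, at 2.10 and 1.89.

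Relatives of the members were taken from lists of the same families. Of 17 further dual-specificity phosphatases 6 were listed in any table and 3 against normoxia. Dusp9, an ERK phosphatase, was 7.44-fold and Dusp10, a phosphatase of JNK and p38, 3.99-fold higher in the susceptible male than in normoxia (FDR-corrected p = 0.000780 and 0.00711) in the authors' deposited table. Dusp9 was 6.37-fold lower in the normal male and 5.08-fold lower in the tolerant male than in the susceptible male in the authors' deposited tables, so that among the males, as for Dusp1 and Rgs1, the susceptible male was highest, then the tolerant male, then the normal male. Dusp9 has no value in the tolerant female, which lay above the tolerant male for Dusp1 and Rgs1. Dusp16 was 2.95-fold higher in the normal male and 2.26-fold higher in the tolerant female than in normoxia in the authors' deposited tables. Dusp6, the ERK phosphatase that ERK itself induces, was not listed against normoxia. It was 2.23-fold lower in the normal male than in the susceptible male, 2.57-fold higher in the tolerant male than in the normal male and 2.73-fold higher in the tolerant female than in the normal male in the authors' deposited tables. Dusp8 was 4.80-fold lower in the normal male than in the susceptible male and 5.28-fold higher in the tolerant female than in the normal male in the authors' deposited tables. Dusp2, an ERK phosphatase of immune cells, went the other way, 3.31-fold higher in the normal male than in the susceptible male and 4.55-fold lower in the tolerant male than in the normal male in the authors' deposited tables.

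Of 21 further Sprouty, Spred and receptor feedback genes 4 were listed against normoxia. Spry1, a close relative of Spry4, was 2.93-fold lower in the normal male than in normoxia (FDR-corrected p = 1.93e-05) and 3.02-fold lower in the normal male than in the susceptible male in the authors' deposited tables. It was 2.69-fold higher in the tolerant male and 3.35-fold higher in the tolerant female than in the normal male in the authors' deposited tables. Spry1 and Spry4 were thus both low in the normal male, but derived folds of Spry1 over normoxia were 1.03-fold higher in the susceptible male, 1.09-fold lower in the tolerant male and 1.14-fold higher in the tolerant female. Socs3, a brake on cytokine receptor signalling, was 2.36-fold higher in the susceptible male, and Socs2 2.58-fold and Cblb 2.07-fold higher in the normal male, than in normoxia in the authors' deposited tables.

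From 21 symbols related to GADD45 and DNA damage, which hold Tp53inp1 also as Trp53inp1, 2 were listed against normoxia. These were Atf3 and Trib3, both of the integrated stress response. Over normoxia, Atf3 had folds of 3.51 in the susceptible male, 2.26 in the tolerant male and 5.35 in the tolerant female, and Trib3 of 3.39, 3.22 and 4.24 in these libraries, in the authors' deposited tables. Derived folds put the normal male 1.89-fold above normoxia for Atf3 and 1.67-fold for Trib3. Ddit4, Plk2 and Tp53inp1 were listed between exposed libraries only. Tp53inp1 was 3.70-fold lower in the normal male than in the susceptible male in the authors' deposited tables. It was 4.32-fold higher in the tolerant female than in the normal male. Ddit4 was 2.01-fold lower and Plk2 2.03-fold higher in the tolerant male than in the susceptible male. The rest of that list, Mdm2, Bax, Bbc3 and Ccng1 among them, was in none of the 9 tables. Of 7 further CDK inhibitors 1 was listed against normoxia, Cdkn1c, which encodes p57. It had rows of opposite sign in the normal male, signed folds of -5.82 and 3.67 over normoxia in the authors' deposited table, so no direction against normoxia is given. Between exposed libraries Cdkn1c had 1 row per table and was highest in the normal male, where Cdkn1a was lowest. It was 3.36-fold higher there than in the susceptible male. The tolerant male was 4.05-fold and the tolerant female 3.38-fold lower than the normal male in the authors' deposited tables. Cdkn2b, the other listed gene of these 7, was 2.03-fold lower in the normal male than in the susceptible male. Of 19 further RGS genes none was listed against normoxia, and Rgs10 and Rgs3 were listed once each between exposed libraries. None of the 5 further BTG/TOB genes was in any table. Of 16 NF-kB and mRNA decay feedback genes none was listed against normoxia. Klf2, an endothelial transcription factor on that list, was 2.39-, 2.09- and 2.31-fold lower in the normal male, tolerant male and tolerant female than in the susceptible male in the authors' deposited tables, beside 2.28-, 2.22- and 2.35-fold for Rgs2.

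**Figure D5:**
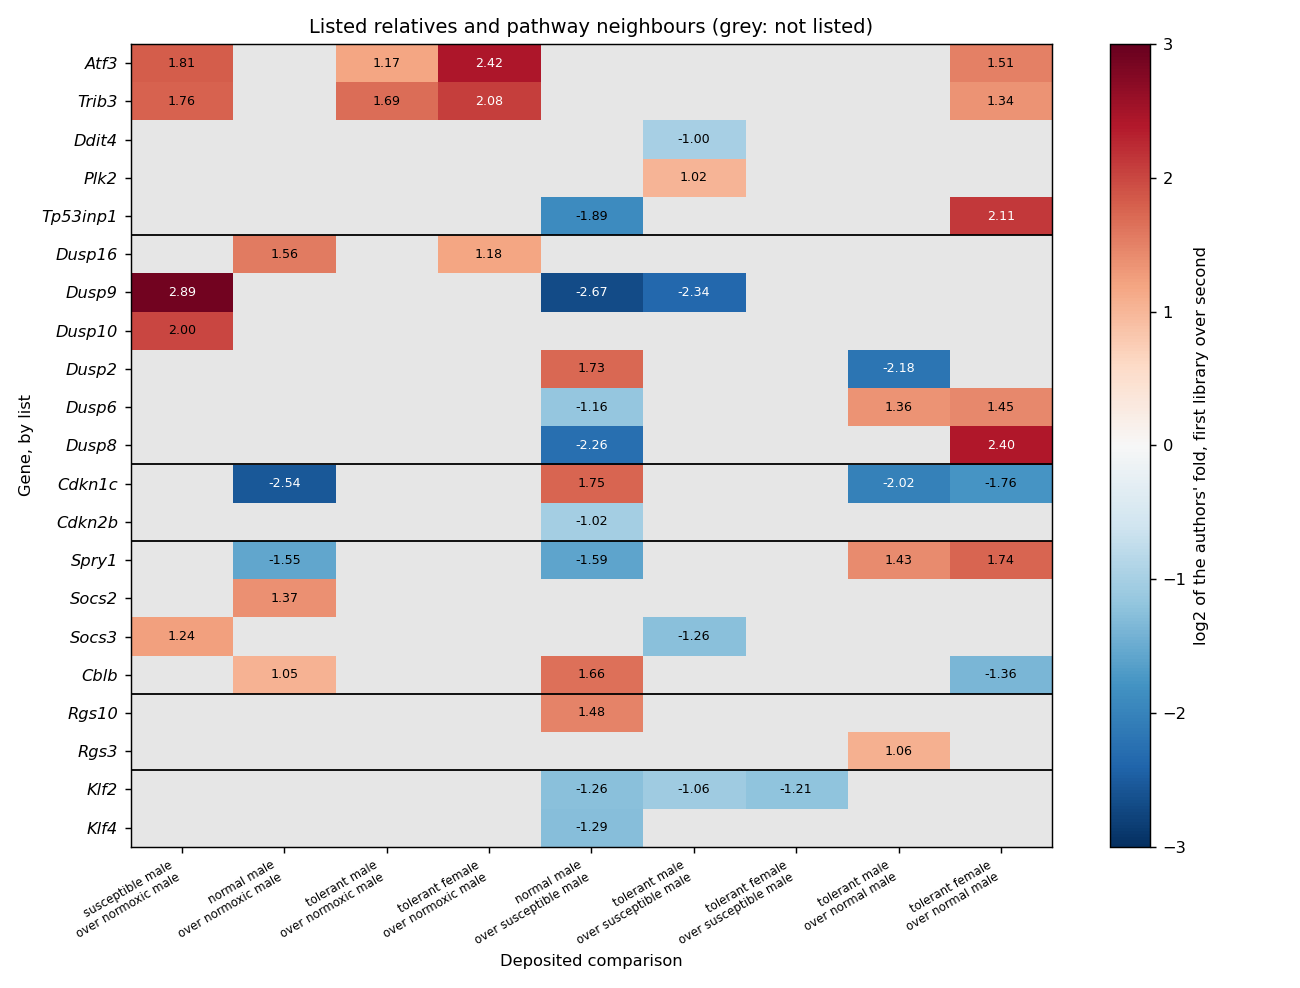
Log2 of the authors' deposited folds for the listed relatives of the members, by list, in the 9 comparisons, first library over second, with grey where a gene is not listed. Spry1 and Dusp6 are blue in the normal male over the susceptible male and red in both tolerant libraries over the normal male. Dusp2 has the opposite colours, red in the normal male over the susceptible male and blue in the tolerant male over the normal male. Of the 2 opposite rows of Cdkn1c in the normal male over the normoxic male, the one with the larger absolute fold is drawn.

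Markers of other cells moved in the same libraries. Of 16 B and plasma cell markers the authors' deposited tables against normoxia held 10 in the susceptible male, 1 in the normal male, 5 in the tolerant male and 7 in the tolerant female, all lower, with medians of 6.30-, 2.91-, 3.09- and 5.58-fold. Rgs1, which B cells express, was higher in the susceptible male, where 10 B and plasma cell markers were lower, and a link between them was not tested. Of 14 neutrophil markers 8 were listed in the susceptible male (7 higher), 4 in the normal male (2 higher), 5 in the tolerant male (4 higher) and 1 in the tolerant female (lower) in the authors' deposited tables. Of 17 T and NK cell markers 1 was listed against normoxia, lower in the normal male, in the authors' deposited table. Of 13 mast cell and eosinophil markers 1, Prg2, was listed, in the susceptible male (19.6-fold higher) in the authors' deposited table. Cardiac muscle markers were lower in all 4, with 17, 14, 14 and 15 of 27 listed in the authors' deposited tables. Proliferation genes were lower where listed, with 5 of 28 in the susceptible male, 2 in the tolerant male and 4 in the tolerant female, and none in the normal male in the authors' deposited tables. The part of these shifts in the members' folds was not tested. Of 13 lung epithelial and endothelial markers 1, Scgb1a1, was listed, and the tables give no levels by which the tissue label could be checked.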

How the data were processed

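Lung RNA of 5 libraries, 1 per group, was compared by the authors in 11 deposited tables, of which 2 were byte for byte copies, leaving 9. Each gives a symbol, a signed proportional fold, an FDR-corrected p-value and a locus, per the file headers. The fold score deposited by the authors is positive for the first library over the second and minus the inverse otherwise. The p-value was deposited by the authors, corrected for the false discovery rate, per the file headers. The aligner, the counting, the test, the build and the depth are not stated in the labels or headers used here. With no counts, no interval or detection limit can be given.

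Bracketed records were removed from symbols, and each symbol counted once per table by its largest absolute fold. LOC, RGD, MGC and id symbols, blanks and dates were left out of the 1323 named symbols, so the background is symbols listed in any table and not genes tested. Chromosome numbers were taken from where most symbols of a record lie in the RefSeq table of GRCr8. Derived log2 folds are sums along tables that link libraries. Of 53 other routes, all matched within 0.001, as ratios of the same proportions must, and the code was tested on simulated data. Promoter windows came from RefSeq GRCr8 (33469 promoters, 21851 of protein-coding genes). Python 3.11.15 was used. No test between conditions was made.

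Members and lists were chosen with earlier results of these data known. Every member is named in every table that lists it. Of each other list, up to 6 genes were to be named, those in most tables against normoxia and then by fold, and genes named from tables between exposed libraries were chosen after their values were seen. The 3 nearest symbols were to be named per member in all 4 tables against normoxia, of which 1 is not reported here. Alternatives were an FDR-corrected p of at most 0.01, a fold of at least 4, the smallest fold per symbol, leaving out the normal male, and derived folds. A planned comparison of protein sequences was not made.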

Additional observations from a re-analysis of the deposited data

Results flagged for a closer look

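Spry4 stood on opposite sides of normoxia in the tolerant female (2.66-fold higher) and the normal male (6.66-fold lower) in the authors' deposited tables, a difference of 17.7-fold. Dusp1 stood on opposite sides in the susceptible male, 3.16-fold higher in the authors' deposited table, and the normal male, 1.91-fold lower by a derived fold, a difference of 6.04-fold. With 1 library per group neither difference between groups was tested against the spread among animals.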

How the results depend on the processing

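The 5 counts against normoxia could not change with the smallest fold per symbol, because each member had 1 row in each table that lists it. With FDR-corrected p limited to 0.01, all 13 counts of members stayed within 1.5 times their value. At that limit the members lower in the tolerant female over the susceptible male went from 3 to 2. The one lost was Rgs1, with the authors' FDR-corrected p of 0.0256. Rgs2 was then the only member lower than the susceptible male in all 3 other exposed libraries. Requiring a fold of at least 4 left 3 of 8 members higher in the susceptible male over normoxia, 3 of 6 lower in the normal male over the susceptible male, and 0 of 3 lower in the tolerant male or tolerant female over the susceptible male. It left 1 of 3 higher and 0 of 1 lower in the tolerant male over the normal male, 1 of 2 higher and 0 of 1 lower in the tolerant female over the normal male, and 1 of 2, Cdkn1a, higher in all 4 libraries over normoxia. That last count stayed 2 without the normal male and with derived folds of at least 2, and was 5 with any derived fold above 1, a setting chosen after seeing the data. All 25 other routes to a derived fold gave the same value. Ratios of the same proportions must agree in this way, so it is no check of the derived folds. A fold of at least 4 removes, by construction, members with folds between 2 and 4. No paired analysis was possible because each group has 1 library and the result comes from no test. Depth is unknown, so absence from a table could not be weighed against detection.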

Other observations

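The authors' FDR-corrected p did not follow the fold among the members. In the authors' deposited table of the susceptible male over normoxia, Btg2 at 2.63-fold and Dusp1 at 3.16-fold had a p of exactly 0, while Errfi1 at 7.33-fold had 1.95e-08 and Rgs1 at 7.14-fold 1.54e-07. Over the 9 tables, 11 of 37 listings of members had a p of exactly 0 and 1 had a p above 0.01.

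For library pairs that have a table, 31 member folds were derived where the table does not list the gene. Of these, 29 were below 2, the nearest being 1.99999 for Rgs1 in the tolerant male over normoxia, and the smallest deposited member fold was 2.05. The authors' tables leave out folds below 2, so these 29 largely follow from how the 31 were selected. The other 2 were both Rgs1, 3.00-fold higher in the tolerant female than in normoxia and 2.65-fold higher in the tolerant female than in the normal male. They pass the authors' fold threshold and are not listed, and the p-value the authors had for them is not in the tables used here. A further 22 pairs gave no value.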
